A study of Homo sapiens with 16 samples.

Results

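Histone deacetylases (HDACs) remove the acetyl groups that acetyltransferase complexes place on histone lysines, and so oppose complexes such as ATAC, of which YEATS2 is a subunit. The zinc-dependent enzymes fall into class I, which works in the nucleus within large corepressor complexes, class IIa, which shuttles between nucleus and cytoplasm and binds MEF2 transcription factors, and class IIb. Sirtuins are a separate family that uses NAD as a cosubstrate. The genes described here are 10 deacetylases chosen by their symbols: class I HDAC1, HDAC2, HDAC3 and HDAC8, class IIa HDAC4, HDAC5 and HDAC7, class IIb HDAC6, and the sirtuins SIRT1 and SIRT6. All 10 were among the 12676 genes of the RNA-seq count table and all 10 passed the filter on low counts.

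RNA-seq was performed in H1299, a cell line from a non-small cell lung carcinoma, with 2 control libraries (shNT, a non-targeting shRNA) and 2 YEATS2 knockdown libraries (shYEATS2). Both groups received lentivirus made in 293T cells with polybrene at 8 µg per ml and, after 48 h, puromycin at 2 µg per ml for a labelled 4 to 7 days, so they share infection and selection and differ by the shRNA. The labels do not name the YEATS2 shRNA. The study's text names shY2-1 for its duplicate RNA-seq, and reports another RNA-seq analysis with a second shRNA, shY2-2, that reduced YEATS2 in part. If the libraries used here are the shY2-1 duplicates, the knockdown rests on 1 shRNA. The study's methods give a shorter selection than the labels. The study describes its RNA-seq duplicates as independent biological replicates, but whether they were separate infections is not stated, so p-values measure the spread between these libraries, which may be technical. The listed genes received between 34718921 and 39417787 reads in each library. YEATS2 itself had 4482 and 4104 scaled reads in the controls, against 665 and 673 after knockdown, a log2 fold change of -2.68 (SE 0.10, where SE is the standard error). Of the marker genes checked, KRT8 and KRT18 (epithelial) and VIM, CDH2 and FN1 (mesenchymal) were listed, whereas KRT19, EPCAM and CDH1, all 4 lung lineage genes, all 3 leukocyte genes and all 3 endothelial genes were not. Summed scaled reads of the 2 epithelial markers were 30269 and 29099 in the controls and 28418 and 19302 after knockdown, and those of the 3 mesenchymal markers were 115020 and 119137 beside 103884 and 87460. Within each set the signs of the single genes differed. The log2 fold changes were 0.31 for KRT8, -0.81 for KRT18, -0.37 for VIM and 0.36 for CDH2. FN1 alone of these 5 was called, at a log2 fold change of 1.46 (FDR 0.00141, edgeR), and the part of these shifts in the values of the deacetylase genes was not tested. In bulk RNA, a change in the share of cells that express a gene and a change in RNA per cell cannot be told apart.

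After YEATS2 knockdown, SIRT1 and HDAC4 fell, and the other 8 genes did not pass the test. SIRT1 mRNA fell 2.31-fold and HDAC4 mRNA 1.79-fold. The largest positive value was that of HDAC7, at 1.42-fold, which missed the threshold. The 2 genes called lower are 20.0% of the 10, beside 12.5% of all genes tested, and none of the 10 was called higher, beside 12.9% of all genes. At an unadjusted p under 0.05, 3 of the 10 were lower and 2 higher, beside 27.8% and 28.7% of all genes. The exactTest of edgeR and DESeq2 each called 1 of the 10 genes higher, beside 20.5% and 17.0% of all genes, and limma-voom called 0, beside 12.6%. Calls were made with the quasi-likelihood test of edgeR at a false discovery rate (FDR) under 0.01 over all genes, on reads scaled by TMM, a method that sets the libraries level for the bulk of genes. The 2 groups did not overlap in 6 of the 10 genes, which is fewer than the 79.6% found over all genes. Of these 6, 4 were lower (beside 39.8% of all genes) and 2 higher (beside 39.7%). The median log2 fold change of the 10 genes was -0.02, beside -0.0019 over all genes.

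**Figure D1:**
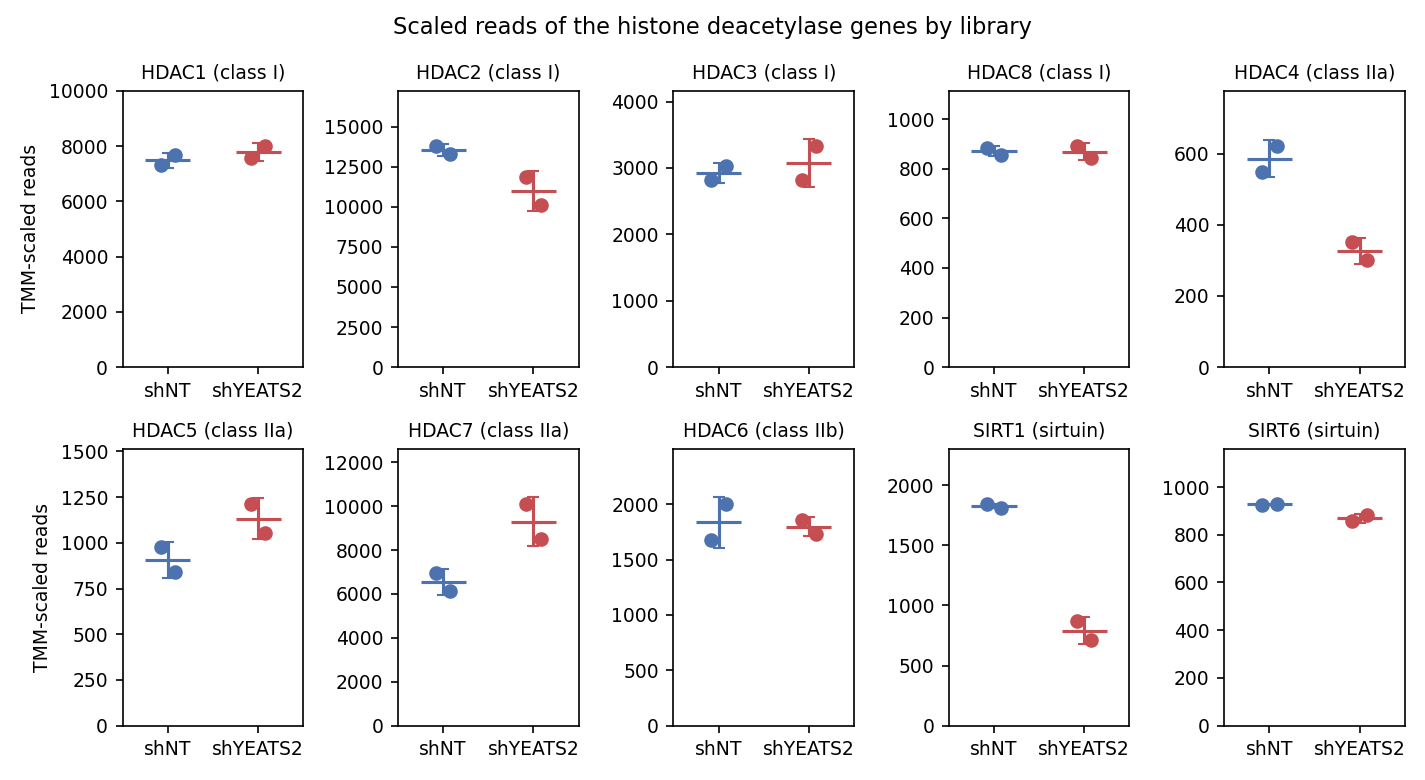
Reads of each of the 10 deacetylase genes, scaled by TMM to the mean library (vertical axes, linear from 0), in the 2 shNT and 2 shYEATS2 libraries. Points are libraries, horizontal lines are means and bars are SD (n = 2). The knockdown libraries lay below both controls for SIRT1 (869 and 713 against 1839.9 and 1812) and HDAC4 (353 and 301 against 549 and 622).

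The 2 sirtuins differed in their values. SIRT1 is a nuclear sirtuin that deacetylates histones and transcription factors, and lies on chromosome 10 of GRCh37 (hg19) from 69644414 to 69678147 (ENSG00000096717). Its scaled reads were 1839.9 and 1812 in the controls, against 869 and 713 after knockdown. Both knockdown libraries were thus below both controls by a wide margin, and the shNT replicates were nearly equal. The controls averaged 1826 ± 20.0 and the knockdown libraries 791 ± 109.7 (SD, n = 2 each). On the log2 scale the change was -1.21 (SE 0.12, FDR 0.00118, quasi-likelihood test of edgeR), the 360th lowest of 12676 values, and each single pairing of a knockdown with a control library gave a log2 ratio between -1.37 and -1.06. Among the alternative analyses, that without a filter repeats the main fit, and that at an FDR under 0.05 only loosens its threshold. Neither could lose a call. The call held in all 14 alternative analyses, in which the share of all genes called lower went from 6.71% to 23.8%, with log2 fold changes from -1.36 to -1.07.

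SIRT6 is a chromatin-bound sirtuin that removes acetyl groups from histone H3, and its gene lies on chromosome 19 from 4174106 to 4182563 (ENSG00000077463). It had 926 and 928 scaled reads in the controls, against 856 and 882 after knockdown. The knockdown libraries were the lower ones, but by little. Its log2 fold change of -0.09 (SE 0.10, 95% interval -0.34 to 0.15, FDR 0.479, quasi-likelihood test of edgeR) did not pass, and with total counts in place of TMM it was 0.03. The 95% intervals of the log2 fold changes of SIRT1 (-1.50 to -0.91) and SIRT6 did not overlap.

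The class IIa genes had values on both sides of 0. HDAC4 encodes a MEF2-binding corepressor and lies on chromosome 2 from 239969864 to 240323348 (ENSG00000068024). It was the gene with the fewest reads of the 10, with 549 and 622 scaled reads in the controls, against 353 and 301 after knockdown. The groups were well separated, since the lowest control exceeded the highest knockdown library. Controls averaged 585 ± 51.5 and knockdown libraries 327 ± 36.9 (SD, n = 2 each), a log2 fold change of -0.84 (SE 0.14, FDR 0.00462, quasi-likelihood test of edgeR). The direction held in all 14 alternatives, but the call was lost without shNT replicate 2 (-0.75, FDR 0.0225) and without shYEATS2 replicate 2 (-0.73, FDR 0.0141). These analyses called fewer genes in all, with 7.25% lower without shNT replicate 2 and 8.41% without shYEATS2 replicate 2. Its FDR ranged from 7.4e-06 to 0.0225 over the alternatives of edgeR, DESeq2 and limma.

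HDAC7, another class IIa enzyme, lies on chromosome 12 from 48176505 to 48226915 (ENSG00000061273). It had 6949 and 6128 scaled reads in the controls, against 10081 and 8497 after knockdown. Both knockdown libraries exceeded both controls. Controls averaged 6538 ± 580.2 and knockdown libraries 9289 ± 1120.1 (SD, n = 2 each), a log2 fold change of 0.51 (SE 0.12, 95% interval 0.22 to 0.79, FDR 0.0146, quasi-likelihood test of edgeR). This missed the threshold of 0.01, but HDAC7 was called higher by edgeR's exactTest (FDR 0.00127), the function named in the study's methods, by DESeq2 (FDR 0.00105), and with total count or upper quartile scaling. The share of all genes called higher was 20.5% by exactTest, 17.0% by DESeq2, 18.6% with total counts and 14.4% with upper quartile scaling. Over the 14 alternatives its FDR ranged from 0.00105 to 0.0922, and all gave a positive value, from 0.38 to 0.63.

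HDAC5, the other class IIa member, lies on chromosome 17 from 42154114 to 42201070 (ENSG00000108840). It had 975 and 839 scaled reads in the controls, against 1211 and 1055 after knockdown. The groups did not overlap, although the distance between the nearest libraries was smaller than that between the controls. The log2 fold change of 0.32 (SE 0.13, FDR 0.0765, quasi-likelihood test of edgeR) did not pass. Summed over the 3 class IIa genes, scaled reads were 8472 and 7588 in the controls, against 11645 and 9853 after knockdown, of which HDAC7 made up most.

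The share of all genes called moved with the analysis. SIRT1 and HDAC4 were both called lower with total counts, by exactTest, at an FDR under 0.05, with a replicate block and without shYEATS2 replicate 1, where 9.20%, 19.7%, 23.8%, 21.4% and 16.0% of all genes were lower. HDAC7 was called higher at an FDR under 0.05, with a replicate block and without shYEATS2 replicate 2, where 24.4%, 21.6% and 7.90% of all genes were higher. None of the 10 genes was called higher without shNT replicate 1, shNT replicate 2 or shYEATS2 replicate 1, where 6.11%, 6.96% and 15.7% of all genes were.

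**Figure D2:**
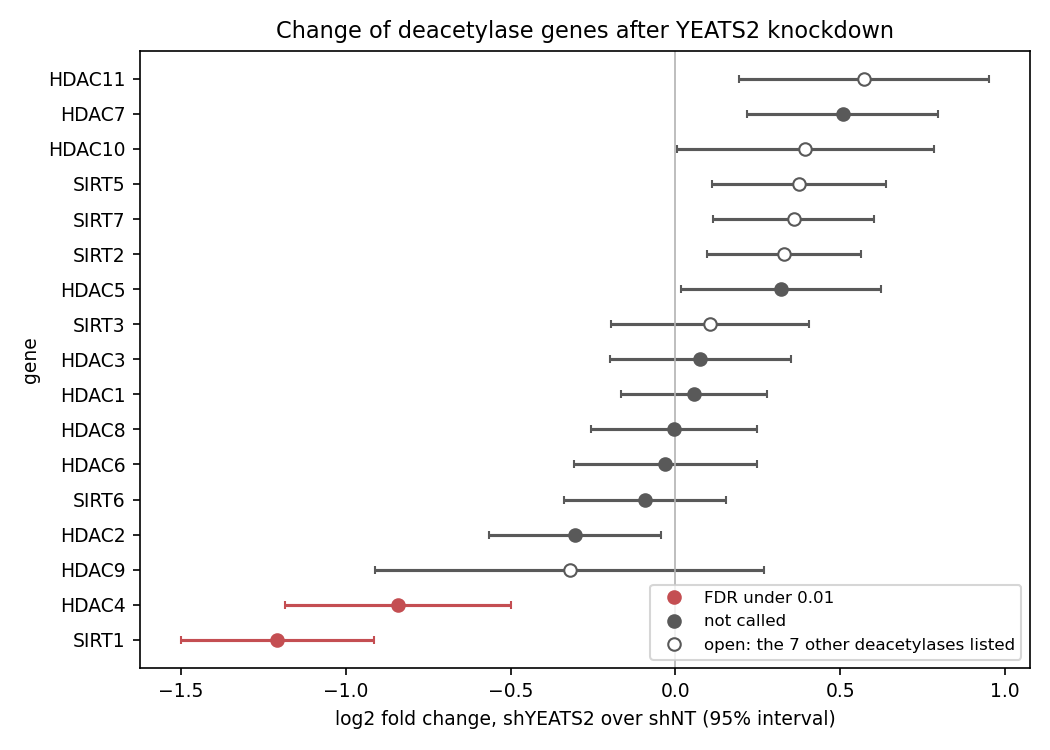
Log2 fold change of shYEATS2 over shNT (horizontal axis) with its 95% interval from edgeR's quasi-likelihood fit, for the 10 chosen deacetylase genes (filled) and the 7 other deacetylase genes in the table (open), in order of value. SIRT1 (-1.21) and HDAC4 (-0.84), in red, passed an FDR of 0.01, and the highest values were those of HDAC11 (0.57) and HDAC7 (0.51), which did not.

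Sequence in the 3′ UTR was examined for a word of 7 bases, AAGTTCA, that was picked with earlier results of these data known. Its relation to fold change was not tested here, and its presence in these genes is a description only. In canonical transcripts of the GENCODE annotation on GRCh37, SIRT1 and HDAC4 each contained the word 1 time, and the other 8 of the 10 genes did not contain it. The sites are shown with 10 bases on either side, 5′ to 3′ on the mRNA strand, with the word in capitals. Both lie in the last exon.
SIRT1: gtctttcaagAAGTTCAtactttatga
HDAC4: ttgggggcagAAGTTCAgacacaccgt

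The SIRT1 window lies at chr10:69677606-69677632 on the plus strand, with the word at base 1266 of a 3′ UTR of 1797 bases. The HDAC4 window lies at chr2:239972405-239972431 on the minus strand, with the word at base 2372 of 4929. The word occurs in 14.4% of the 11390 genes with a 3′ UTR, and in 14.1% and 37.9% of those whose 3′ UTR is within 10% of the length of that of SIRT1 and HDAC4. HDAC2 has the longest 3′ UTR of the 10 genes, 8030 bases, and does not contain the word, although 45.7% of genes of like length do. The reverse complement, TGAACTT, occurs in 17.5% of all 3′ UTRs and in those of HDAC2, HDAC4 and HDAC7. The overlapping word CAAGTTC was in none of the 10 genes, against 10.1% of all genes. A match describes these letters only, and no factor or function was tested.

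**Figure D3:**
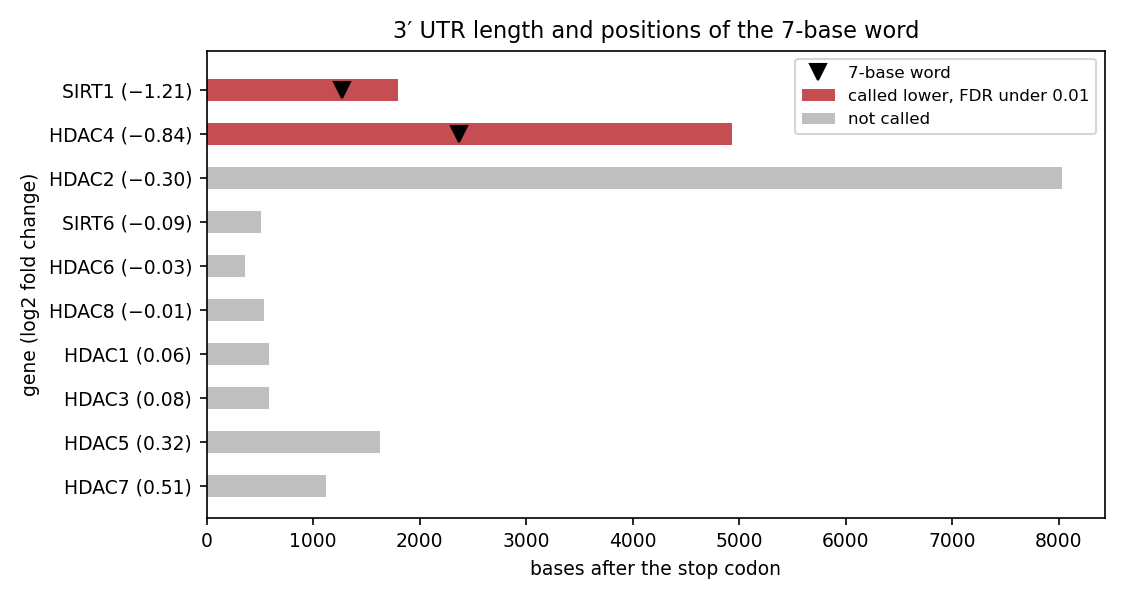
Length of the 3′ UTR of the canonical transcript of each of the 10 genes (bars, in bases after the stop codon), ordered by log2 fold change, with triangles at the word AAGTTCA. Of these 10 genes, SIRT1 and HDAC4 carry a triangle, at bases 1266 and 2372. Red marks the 2 genes called lower. The word was picked with earlier results of these data known, and its relation to the calls was not tested. HDAC9, which is not among the 10 and was not called, also contains the word.

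None of the 4 class I genes passed the test. HDAC1 and HDAC2 are close paralogs that serve as the catalytic subunits of the SIN3, NuRD, CoREST and MiDAC corepressor complexes. HDAC2 lies on chromosome 6 from 114254192 to 114332472 (ENSG00000196591) and had the most reads of the 10 genes, with 13797 and 13266 scaled reads in the controls, against 11845 and 10081 after knockdown. Both knockdown libraries were lower than both controls. The log2 fold change was -0.30 (SE 0.11, 95% interval -0.56 to -0.04, FDR 0.0574, quasi-likelihood test of edgeR), and over the 14 alternatives it was below 0 in all and called in none. HDAC1 lies on chromosome 1 from 32757684 to 32799236 (ENSG00000116478), with 7298 and 7686 scaled reads in the controls, against 7567 and 8008 after knockdown. Its groups overlapped, and the log2 fold change was 0.06 (SE 0.09, 95% interval -0.17 to 0.28, FDR 0.640 from the same test).

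Among the reads of these 2 paralogs, the share that belonged to HDAC2 was 65.4% (95% Wilson interval 64.7 to 66.1) and 63.3% (62.6 to 64.0) in the shNT libraries and 61.0% (60.3 to 61.7) and 55.7% (55.0 to 56.4) in the shYEATS2 libraries. These intervals cover counting error only, and reads that map to both genes, which HTSeq leaves out by default, could not be examined. The share was lower in both knockdown libraries, with a mean difference of -5.99 percentage points (58.4 ± 3.74 against 64.4 ± 1.48, SD, n = 2 each). The exact two-sided permutation test gave p = 0.333, the smallest that 2 against 2 libraries allow, so the design cannot pass 0.05 for this single value. Without shYEATS2 replicate 2 the difference was -3.34 points, as 61.0% was the higher of the knockdown values.

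HDAC3 is the catalytic subunit of the NCoR complex and lies on chromosome 5 from 141000443 to 141016416 (ENSG00000171720). It had 2812 and 3024 scaled reads in the controls, against 2814 and 3333 after knockdown. The groups overlapped, and the log2 fold change was 0.08 (SE 0.12, 95% interval -0.20 to 0.35). HDAC8, a class I enzyme outside these complexes that acts on cohesin, lies on chromosome X from 71549366 to 71792951 (ENSG00000147099). It had 884 and 857 scaled reads in the controls, against 892 and 843 after knockdown, so that the controls lay between the knockdown values. Its log2 fold change was -0.01 (SE 0.11, 95% interval -0.26 to 0.25). Over the 4 class I genes, summed scaled reads were 24791 and 24834 in the controls, against 23118 and 22266 after knockdown.

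HDAC6, the class IIb enzyme that deacetylates tubulin in the cytoplasm, lies on chromosome X from 48659784 to 48683392 (ENSG00000094631). It had 1673 and 1999 scaled reads in the controls, against 1860.0 and 1736 after knockdown. Both knockdown values fell within the range of the controls. The log2 fold change was -0.03 (SE 0.12, 95% interval -0.31 to 0.25), and its sign differed among the alternatives. For HDAC1, HDAC3, HDAC6, HDAC8 and SIRT6 the 95% intervals reached no further than 0.35 from 0 on the log2 scale. Changes within these intervals could not be told from none with 2 libraries a group. The bounds are not the smallest change that the test at an FDR under 0.01 could call. Summed over all 10 genes, scaled reads were 37703 and 37161 in the controls, against 38347 and 35450 after knockdown, and these ranges overlapped.

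Levels were then compared between the genes per length of the canonical transcript, as RPKM, the scaled reads divided by transcript length and library size. HDAC1 was the highest in the control libraries, at 97.1 ± 3.56 (SD, n = 2), and HDAC4 the lowest, at 1.90 ± 0.167. HDAC7 (42.6 ± 3.78), HDAC3 (41.4 ± 2.14) and HDAC2 (38.1 ± 1.06) followed HDAC1, and the libraries of HDAC7 and HDAC3 overlapped. A second group held SIRT6 (15.9 ± 0.0140), HDAC8 (13.6 ± 0.303), HDAC6 (12.2 ± 1.54) and SIRT1 (12.2 ± 0.133), with overlap between HDAC6 and SIRT1. HDAC5 (4.68 ± 0.497) came before HDAC4. In the knockdown libraries SIRT1 was at 5.29 ± 0.734, overlapping with HDAC5 at 5.85 ± 0.570, and HDAC7 was at 60.6 ± 7.31, above both libraries of HDAC3 (43.7 ± 5.21).

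The order depends on the transcript length used. With all annotated exons of a gene merged, HDAC1 remained first in the controls (51.9 RPKM) and HDAC2 came second (24.2 RPKM), while HDAC8, whose merged exons span 22888 bases against 1754 in the canonical transcript, was the lowest (1.04 RPKM) and HDAC4 next to it (1.13 RPKM).

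**Figure D4:**
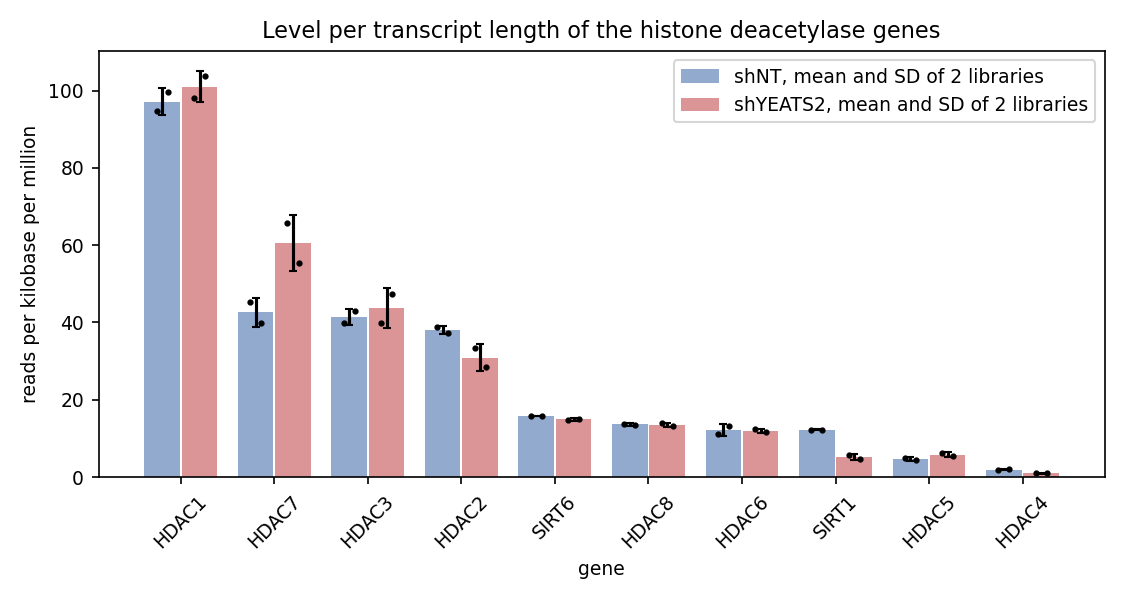
Level of each of the 10 genes in RPKM from TMM-scaled reads and the canonical transcript (vertical axis, linear from 0), ordered by the shNT mean. Bars are means, error bars are SD (n = 2) and points are libraries. HDAC1 was highest at 97.1 in shNT, SIRT1 went from 12.2 to 5.29, and HDAC4 was lowest in both groups.

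Of the 8 other deacetylase genes, 7 were in the table and SIRT4 was not. None of the 7 was called at an FDR under 0.01 by edgeR's quasi-likelihood test, by DESeq2 or by limma-voom, while exactTest called 1, HDAC11. Beside this, 25.3% of all genes were called in either direction by the quasi-likelihood test. The exactTest, DESeq2 and limma-voom called 19.7%, 17.3% and 12.8% of all genes lower and 20.5%, 17.0% and 12.6% higher. At an unadjusted p under 0.05, 5 of the 7 were higher and none lower, beside 28.7% and 27.8% of all genes. In 5 of the 7 both knockdown libraries exceeded both controls, beside 39.7% of all genes. HDAC11, the class IV enzyme, had 286 and 318 scaled reads in the controls, against 399.9 and 498 after knockdown (log2 fold change 0.57, FDR 0.0244, quasi-likelihood test of edgeR).

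The other sirtuins, SIRT2 (cytosolic), SIRT7 (nucleolar) and the mitochondrial SIRT5 and SIRT3, had log2 fold changes of 0.33, 0.36, 0.38 and 0.11. SIRT2 had 2932 and 2893 scaled reads in the controls, against 3846 and 3475 after knockdown. SIRT7 had 881 and 847 against 1093 and 1123 in the same order, and SIRT5 had 803 and 904 against 1107 and 1106. These 3 genes had FDR values from 0.0266 to 0.0307 (edgeR's quasi-likelihood test). SIRT1 was thus the only one of the 6 sirtuins in the table with a call in the main test, and SIRT6 the only other with a negative value. With total counts SIRT2 (0.45, FDR 0.00909) and SIRT7 (0.48, FDR 0.00903) were called higher by the same test of edgeR. Under that scaling 18.6% of all genes were called higher, and the median log2 fold change over all genes was 0.118. HDAC10, of class IIb, had a log2 fold change of 0.39 (FDR 0.0860). HDAC9, of class IIa, had -0.32 with a standard error of 0.25, and its shNT libraries differed widely (1944 and 1149 scaled reads), and it also contains AAGTTCA in its 3′ UTR.

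The proteins with which deacetylases work were examined as a list of 62 cofactor genes, of which 60 were in the table. Of the 60, 2 were called lower (3.33%, beside 12.5% of all genes) and 3 higher (5.0%, beside 12.9%), and their median log2 fold change was 0.16. At an unadjusted p under 0.05 (edgeR's quasi-likelihood test), 24 of the 60 were higher and 6 lower, beside 28.7% and 27.8% of all genes. By the same measure 5 SIN3 genes were higher and 3 lower, and 2 CoREST genes were higher and 2 lower. Among the 13 SIN3 complex genes, SAP30, a subunit that binds HDACs, fell from 527 ± 39.7 to 337 ± 24.9 scaled reads (SD, n = 2 each, log2 fold change -0.65, FDR 0.00912, quasi-likelihood test of edgeR). ARID4B, another SIN3 subunit, rose from 1101 ± 29.5 to 1597 ± 50.7 scaled reads (0.54, FDR 0.00555). The scaffolds SIN3A (0.11) and SIN3B (0.29) did not pass. Among the 9 CoREST complex genes, KDM1A, the histone demethylase of the complex, fell from 6949 ± 285 to 5086 ± 14.2 scaled reads (-0.45, FDR 0.00791), and ZMYM2 rose from 2249 ± 29.0 to 3631 ± 166 (0.69, FDR 0.00233).

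None of the 9 NuRD genes was called, with values from -0.11 for MTA2 to 0.30 for the ATPase CHD4, nor were the histone-binding subunits RBBP4 (-0.24) and RBBP7 (-0.21) that SIN3 and NuRD share. At an unadjusted p under 0.05, 2 of the 9 NuRD genes were higher and none lower, beside 28.7% and 27.8% of all genes. None of the 3 MiDAC and 5 NCoR genes was called, with 1 MiDAC gene higher and 1 NCoR gene lower and 2 higher at an unadjusted p under 0.05. The quasi-likelihood test called 25.3% of all genes in either direction. The exactTest of edgeR, DESeq2 and limma-voom each called 0 genes in these lists. Of all genes, these 3 tests called 19.7%, 17.3% and 12.8% lower and 20.5%, 17.0% and 12.6% higher. The corepressor NCOR1 had a log2 fold change of -0.34 (FDR 0.0245, quasi-likelihood test of edgeR).

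Of the 5 class IIa partners, MEF2D, a MEF2 transcription factor, rose from 3726 and 3390 scaled reads in the shNT libraries to 5537 and 6403 in the shYEATS2 libraries (log2 fold change 0.75, standard error 0.11, FDR 0.00301, quasi-likelihood test of edgeR). MEF2A (0.40) and MEF2C (0.29) did not pass, although exactTest called MEF2A. MEF2D was thus the 1 of the 5 partners called higher (20.0%, beside 12.9% of all genes), and none was called lower, beside 12.5%. At an unadjusted p under 0.05 (edgeR's quasi-likelihood test), 4 of the 5 were higher and none lower, beside 28.7% and 27.8% of all genes. Of the 8 kinases that phosphorylate class IIa HDACs, 7 were in the table and none was called, with values from -0.23 for PRKD3 to 0.44 for PRKD2. At an unadjusted p under 0.05, 5 of these 7 were higher and none lower, beside 28.7% and 27.8% of all genes. The exactTest of edgeR and DESeq2 each called 3 kinases higher (CAMK2G, PRKD2 and SIK3), beside 20.5% and 17.0% of all genes, and limma-voom called 0.

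The calls of SAP30 and KDM1A were each lost with every one of the 4 libraries left out in turn, where their FDR reached 0.061 and 0.069, and with total counts neither was called. Their log2 fold changes in these 4 analyses stayed between -0.72 and -0.57 for SAP30 and between -0.50 and -0.41 for KDM1A. The share of all genes called lower there was 6.71%, 7.25%, 16.0% and 8.41%, beside 12.5% with all libraries. ARID4B was called in 1 of these 4 analyses (without shYEATS2 replicate 1), ZMYM2 in 2 (those without a knockdown library) and MEF2D in 3 (all but that without shNT replicate 2). The direction held for all 5 called cofactor genes in all 14 alternatives. With total counts 12 of the 60 cofactor genes were called higher and 0 lower, beside 18.6% and 9.20% of all genes.

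**Figure D5:**
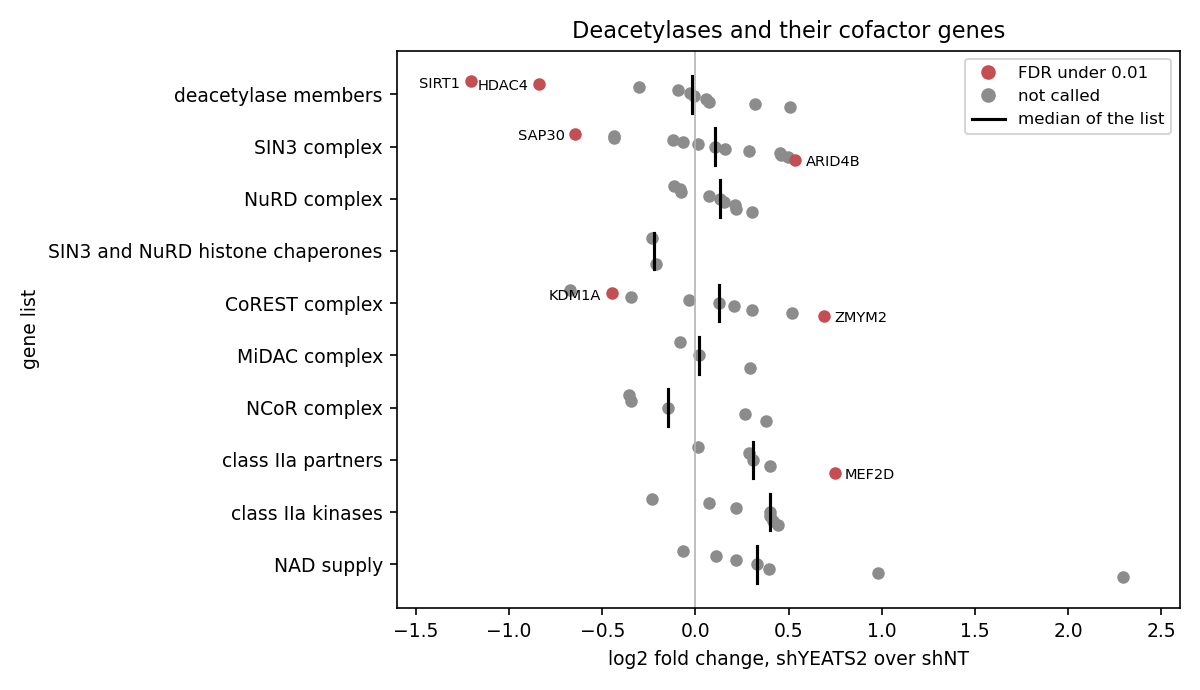
Log2 fold change of shYEATS2 over shNT (horizontal axis) for the 10 deacetylase genes and the 60 listed cofactor genes in their lists. Each point is a gene, red where the FDR was under 0.01, and black lines are medians of the lists. The called cofactor genes were SAP30 (-0.65), KDM1A (-0.45), ARID4B (0.54), ZMYM2 (0.69) and MEF2D (0.75).

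Some of these genes share exonic sequence with neighbours, and the library kit named in the labels does not mark strand. HTSeq counts by strand under its default parameters, which the methods name, and whether that setting was used on these libraries could not be settled, so reads of a gene and of a partner on the other strand cannot be told apart. No other annotated gene overlaps the exons of SIRT1, SIRT6, HDAC1 or HDAC6. HDAC4 shares 258 and 101 bases with 2 antisense RNAs that are not in the table. HDAC5 shares 1826 bases with G6PC3 on the other strand, whose log2 fold change was 0.02. HDAC8 shares 1193 bases with a gene on the same strand that is not in the table, and HDAC10 shares 2763 with MAPK12 on the same strand, whose log2 fold change was -0.34. HDAC2 shares 69 bases with HDAC2-AS2, an antisense RNA that is in the table and whose values were not examined here. HDAC3 shares 426 bases with an antisense RNA that is not in the table. HDAC7 shares 963 and 117 bases with antisense RNAs that are not in the table and 30 bases with SLC48A1 on the other strand, a gene that was called higher (0.50, FDR 0.00855, quasi-likelihood test of edgeR). The part of these overlaps in the values was not tested.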

How the data were processed

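Per the study's methods, the authors used the RNA-Seq unified mapper (hg19) and HTSeq with default parameters. The deposited values are raw counts, and every gene in the table reaches at least 101 reads in 1 or more libraries. The labels' processing notes also name TopHat2. The annotation is not given in the sources used here. The table also holds the authors' deposited log2 fold changes, p-values and FDR values from edgeR, which were not used. The ChIP-seq samples were not analysed here.

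All 12676 genes passed a minimum of 10 reads in 2 or more libraries. They were tested with the quasi-likelihood test of edgeR 4.0.16 (R 4.3.3), TMM scaling and Benjamini-Hochberg adjustment over all genes, two-sided, at an FDR under 0.01. Scaled reads are counts divided by TMM library size, times the mean of those sizes. Intervals of log2 fold changes use the t distribution of that fit. TMM factors were from 0.952 to 1.04 (total reads 34718921 to 39417787), the biological coefficient of variation was 0.107 and the standard error was 0.123 for the median gene. Alternatives were DESeq2 1.42.0, edgeR's exactTest, limma-voom (limma 3.58.1), other scalings and filters, an FDR of 0.05, a replicate block and each library left out. The scripts were tested on simulated data.

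Positions, lengths and 3′ UTRs come from the GENCODE annotation on GRCh37, which matched 12465 of 12676 identifiers (98.3%). The 10 members and the gene lists were chosen with earlier results of these data known. Genes named are the 10 members, YEATS2, the other deacetylases and, in each cofactor list, up to 4 called genes; uncalled cofactor genes, marker genes and neighbours were named after their values were seen.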

Additional observations from a re-analysis of the deposited data

How the results depend on the processing

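The call of SIRT1 held in all 14 alternatives and that of HDAC4 in 12. These counts include the analysis without a filter, which repeats the main fit as all genes passed the filter. They also include that at an FDR under 0.05, which only loosens the threshold, and neither could lose a call. With each library left out in turn (quasi-likelihood fits in which the lone library is assumed to vary like the other group), members called lower ranged from 1 to 2 and members called higher from 0 to 1, and the HDAC2 share differed by -8.63 to -3.34 percentage points. In the same fits, other deacetylases called higher ranged from 0 to 1, cofactor genes called lower were 0 in each, and those called higher ranged from 0 to 11, with 0 without shNT replicate 2 and 11 without shYEATS2 replicate 1. HDAC7 was the 1 member called higher with total counts, upper quartile scaling, exactTest, DESeq2, a replicate block, an FDR under 0.05 and without shYEATS2 replicate 2. Other deacetylases called higher were 2 with total counts, 1 with exactTest and 4 at an FDR under 0.05 (of 7 genes, beside 18.6%, 20.5% and 24.4% of all genes). Cofactor genes called lower were 0 with total counts, 1 with upper quartile scaling, 1 with a mean count of at least 100 and 6 at an FDR under 0.05. Of all genes, 9.20%, 12.6%, 12.6% and 23.8% were called lower there. Cofactor genes called higher were 12 with total counts, 14 with exactTest, 10 with DESeq2 and 19 at an FDR under 0.05 (of 60 genes, beside 18.6%, 20.5%, 17.0% and 24.4% of all genes). Signs turned for genes near 0, and for HDAC9, which was at -0.32 in the main analysis with shNT libraries of 1944 and 1149 scaled reads. With total counts HDAC8 was at 0.11, HDAC6 at 0.09 and SIRT6 at 0.03. HDAC8 was at 0.01 with upper quartile scaling and with a mean count of at least 100. Without shNT replicate 1, HDAC8 was at 0.01 and HDAC9 at 0.10, without shNT replicate 2 HDAC6 was at 0.10, and without shYEATS2 replicate 2 HDAC3 was at -0.05, HDAC8 at 0.04 and HDAC6 at 0.02. With each library left out, HDAC3 ranged from -0.05 to 0.19, HDAC6 from -0.16 to 0.10, HDAC8 from -0.05 to 0.04 and HDAC9 from -0.65 to 0.10. The cause was not tested. With total counts the median over all genes moved from -0.0019 to 0.118 (log2), and that of the members from -0.02 to 0.10.

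Over all genes, the count called was 1581 lower and 1630 higher in the main analysis, 2497 and 2596 with exactTest, 1166 and 2363 with total counts, 3011 and 3093 at an FDR under 0.05, and 850 and 775 without shNT replicate 1. Same-numbered replicates deviated together (r = 0.404 over genes), but with 2 pairs and no label on shared batches they share only a number. With a replicate block 2715 genes (21.4%) were lower and 2742 (21.6%) higher over all genes. There 1 member and 1 other deacetylase were called higher, and of the 60 cofactor genes 5 were lower and 15 higher.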

Other observations

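Sirtuins need NAD, and 7 of 8 genes of NAD supply were in the table, of which none was called at an FDR under 0.01 by edgeR's quasi-likelihood test, beside 25.3% of all genes in either direction. At an unadjusted p under 0.05, 3 of the 7 were higher and none lower, beside 28.7% and 27.8% of all genes. The exactTest called 3 higher (NADSYN1, NMRK1 and QPRT), DESeq2 2 and limma-voom 0, beside 20.5%, 17.0% and 12.6% of all genes. NAMPT, the rate-limiting enzyme of NAD salvage, had 4018 and 4119 scaled reads in the controls, against 3996 and 4777 after knockdown, with overlapping groups and a log2 fold change of 0.11. NMRK1, a nicotinamide riboside kinase, had 108 and 119 scaled reads in the controls, against 164 and 283 after knockdown (0.98, FDR 0.0279). QPRT, of the de novo pathway, had 8.61 and 26.0 scaled reads in the controls, against 40.3 and 129 after knockdown (2.29 with a standard error of 0.69, FDR 0.0314). For both genes the knockdown libraries exceeded the controls but differed from each other, and shYEATS2 replicate 2 had the higher value. Every gene in the count table reaches at least 101 reads in 1 or more libraries. QPRT came near or above this in shYEATS2 replicate 2 only, so it is listed only through the group where it is higher. Its rise, and its place in the counts of higher genes above, therefore cannot be read as a result.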
